A study of Homo sapiens with 6 samples.

Results

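The transcripts of CD82 and 9 related tetraspanins (CD9, CD63, CD81, CD151, TSPAN1, TSPAN3, TSPAN4, TSPAN13 and TSPAN15) were described in DU145 cells, a human prostate cancer cell line, with and without taraxasterol (TAX), a plant triterpene. The 10 genes were found by their symbols among 23062 identifiers in each library's table, and they are part of 33 tetraspanin genes that the tables list. They were chosen from genes whose values in TAX-treated and control cells of these libraries were already known, so what follows on that comparison is a description of those values, and counts of genes past a threshold are given only beside the same share of all genes. RNA was sequenced from 3 control libraries of cells kept in medium for 48 h and from 3 libraries of cells given TAX at its IC50 (56 µM) for 48 h. All 6 came from the same wild-type line. TAX was dissolved in DMSO while the control is labelled as medium, so an effect of the solvent cannot be told apart from that of TAX. The labels do not say whether the 3 libraries of a group came from separate cultures, so the spread between them may be technical.

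The tetraspanins are small membrane proteins that cross the cell membrane several times and gather integrins, proteases and other surface proteins into patches of the membrane. CD82, also called KAI1, is known as a suppressor of metastasis in prostate cancer, and it holds back the movement of cells through its contacts with integrins and growth factor receptors. Its relatives differ in where they sit in the cell. CD63 is found mainly in late endosomes, lysosomes and the vesicles that cells release, whereas CD9, CD81 and CD151 are found mainly at the cell surface.

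The values, taken as FPKM (fragments normalized to transcript length and library size), allow levels of different genes to be set side by side because they are given per length. They summed to between 322483 and 363724 per library, and since no read counts were used, the depth behind each value is unknown. Control replicate 3 had the lowest sum and held the lowest of the 6 values for 58.0% of the 12359 genes that reached 1 FPKM in at least 3 libraries. All 10 tetraspanins passed that filter, and the lowest of their values was 2.70 FPKM. The epithelial genes EPCAM, CDH1, KRT8 and KRT18 were between 40.7 and 173 FPKM in every library. The prostate gene KLK3 and the basal keratin KRT5 were listed at 0 in all 6 libraries. Of the leukocyte, fibroblast and endothelial markers, CD3E and DCN were listed at 0 in all 6 libraries, PTPRC, PDGFRB, PECAM1, VWF and CDH5 were at most 0.0326 FPKM, and COL1A1 was between 1.42 and 2.08 FPKM.

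The genes lie apart in the genome except for a pair. In GENCODE annotation of GRCh38, CD82 spans chr11:44564427-44620363 on the plus strand, and its longest coding transcript has 10 exons and 801 coding bases. CD151 (chr11:832843-839831) and TSPAN4 (chr11:842808-867116) are neighbours on the same strand, 2976 bases apart. CD151 overlaps POLR2L, a subunit gene of RNA polymerases on the other strand, by 2476 bases. POLR2L was itself between 45.6 and 60.7 FPKM, and because the use of strand in quantification is not stated, reads of the pair may have been shared. The same uncertainty holds for CD82, which overlaps antisense genes by 830 and 1932 bases. It also holds for CD9, CD63, CD81, TSPAN1, TSPAN3 and TSPAN4. The genes that overlap these were not among the identifiers, so their levels are unknown. TSPAN13 and TSPAN15 had no annotated overlap. Besides CD82, CD151 and TSPAN4, the other 7 genes lie on chromosomes 1, 7, 10, 11, 12 and 15.

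RefSeq promoters on GRCh38.p14 were found for 7 of the 10 genes, all but CD81, CD151 and TSPAN3. The window examined was the 250 bases before the first listed start. These windows are not all upstream of the annotated gene. The window of CD82 lies within the GENCODE gene, whose 5' end is 1236 bases before the listed start, and that of CD63 also lies within its gene. In 6 of the 7 windows, between 14 and 231 bases were annotated exon of the same gene, the exception being TSPAN15. The stretch of the window before any such exon is shown for CD82, the gene with the largest difference described here, and for TSPAN1, the least abundant of the 10, which differ in their GC boxes. They lie at chr11:44565413-44565590 and chr1:46174837-46175072, both on the plus strand. Capitals mark the GC box GGGCGG, the core of sites that Sp-family factors bind, searched on both strands.
CD82: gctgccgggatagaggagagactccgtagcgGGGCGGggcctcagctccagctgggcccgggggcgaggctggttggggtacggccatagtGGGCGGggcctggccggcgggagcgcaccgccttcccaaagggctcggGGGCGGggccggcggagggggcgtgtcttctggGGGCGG
TSPAN1: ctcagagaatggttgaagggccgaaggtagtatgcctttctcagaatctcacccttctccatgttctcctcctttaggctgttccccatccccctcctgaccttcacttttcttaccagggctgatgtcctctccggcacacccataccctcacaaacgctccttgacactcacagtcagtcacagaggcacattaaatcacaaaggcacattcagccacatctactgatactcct

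The CD82 window held 4 GC boxes, all in the stretch shown, a number reached in 7.82% of all 27305 promoters of this length, and CD63 held 3, a number reached in 14.0% of them. TSPAN1 held none. At least 1 GC box was present in 5 of the 7 tetraspanin windows, against 42.3% of all promoters. The E-box CACGTG was found in 1 of the 7 (CD63), against 6.49%, and TATAAA in 0 of the 7, against 11.1%, both searched on both strands. The windows of the 7 genes had a median GC content of 70.0%, from 51.2% in TSPAN1 to 79.2% in CD63, and the median over all promoters was 58.0%. CD82 had a GC content of 77.2%. These matches describe letters in the sequence only, and binding was not measured.

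In control cells, CD63 was by far the most abundant of the 10 transcripts, at 230.2 ± 7.05 FPKM (SD, n = 3). The surface tetraspanins followed, with CD151 at 104 ± 11.8 FPKM, CD81 at 72.6 ± 5.02 FPKM and CD9 at 68.3 ± 4.64 FPKM. CD81 also serves as a co-receptor in B cells, and CD9 is known for its part in the fusion of egg and sperm. Their ranges overlapped in both groups. CD81 was the higher in 3 of 3 control libraries and in 2 of 3 TAX libraries. CD63 alone made up 34.7% ± 1.3 of the summed FPKM of the 33 tetraspanins in control cells, and the 10 genes together made up between 87.5% and 88.6% in the 6 libraries.

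Below these came TSPAN3 at 37.3 ± 3.23 FPKM and TSPAN4, known from the retraction fibres and migrasomes of moving cells, at 25.3 ± 1.72 FPKM. TSPAN15, a partner of the protease ADAM10, stood at 20.0 ± 2.07 FPKM, and TSPAN13 at 15.9 ± 1.96 FPKM. The ranges of TSPAN15 and TSPAN13 overlapped in control cells but not in TAX-treated cells, and TSPAN15 was the higher in each library. CD82 and TSPAN1 were the least abundant of the 10. The mean of TSPAN13 in control cells was 3.61 times that of CD82, and the mean of CD82 was 1.42 times that of TSPAN1. By its mean over all 6 libraries, TAX included, CD82 stood at percentile 34.2 of all genes tested, whereas CD63 stood at percentile 98.8. Besides CD81 and CD9, and TSPAN15 and TSPAN13, no neighbours in the order of control means had overlapping ranges in control cells.

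**Figure D1:**
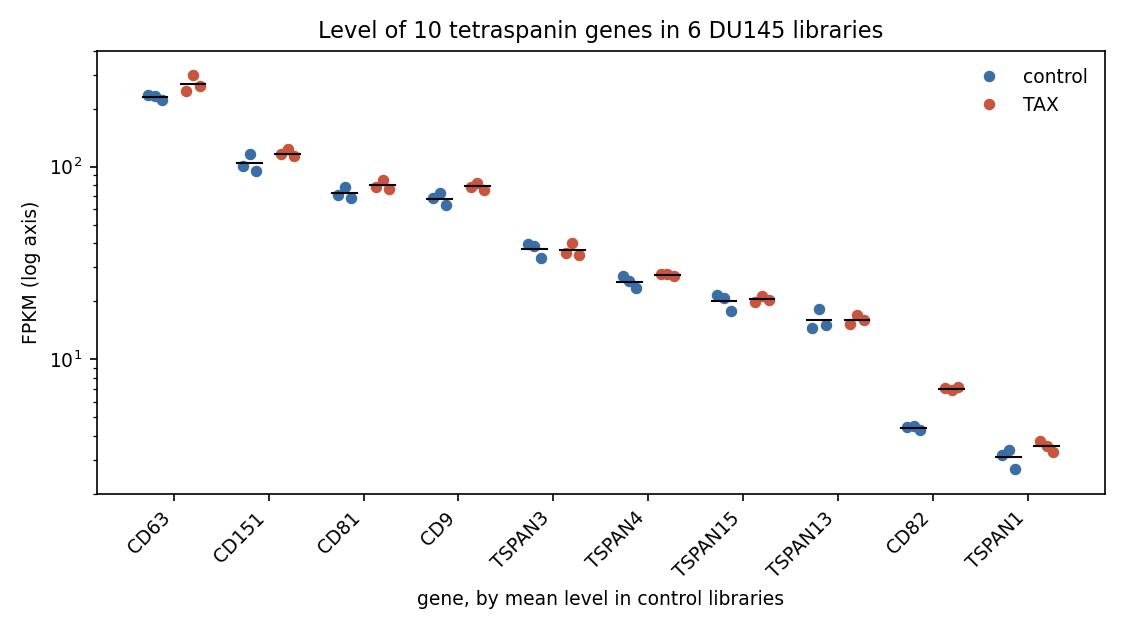
FPKM of the 10 tetraspanins on a log axis in 3 control and 3 TAX libraries, with each point a library and each bar the mean of a group. CD63 stands highest, at 222 to 299.6 FPKM, and CD82 is the gene with the widest gap between the groups.

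The largest difference between the groups among the 10 genes was that of CD82. In the control libraries CD82 stood at 4.45, 4.48 and 4.28 FPKM, and after TAX it stood at 7.05, 6.92 and 7.14 FPKM. All 3 TAX values stood well above all 3 control values, and the gap between the groups was far wider than the spread within either. The control mean was 4.41 ± 0.108 FPKM and the TAX mean 7.04 ± 0.112 FPKM (SD over the 3 libraries of a group), a ratio of 1.60 and a log2 fold change of 0.57 (SE 0.074) on the log2(FPKM + 1) scale. By size alone, the log2 fold change of CD82 ranked 74 among the 12359 genes tested. That rank lay between 74 and 110 under the other ways of processing given below. In bulk RNA, more cells that express a gene and more RNA per cell cannot be told apart.

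The place of CD82 within the family moved with its level. It made up 0.664% ± 0.023 of the summed FPKM of the 33 tetraspanins in control cells and 0.946% ± 0.069 in TAX-treated cells, and its rank by mean FPKM was 16 and 14, with TSPAN31 and TSPAN12 above it in control cells only. The range of TSPAN31 in control cells, 3.60 to 6.52 FPKM, enclosed that of CD82. The ratio of TSPAN13 to CD82 was 3.61 in control cells and 2.28 in TAX-treated cells, and that of CD82 to TSPAN1 was 1.42 and 2.00. Even so, CD82 remained a minor transcript of the family. In both groups CD63, then CD151, then CD81 and CD9 with overlapping ranges, then TSPAN3 and TSPAN4 stood above the rest.

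CD63 was at 236, 232 and 222 FPKM in control cells and, after TAX, at 248, 299.6 and 261 FPKM. The TAX values lay above the control values in each case, but TAX replicate 2 stood apart from its group and widened the spread. The means were 230.2 ± 7.05 and 269.5 ± 27.0 FPKM, a log2 fold change of 0.22 (SE 0.096). CD9 was at 68.6, 72.8 and 63.5 FPKM in control cells and, after TAX, at 78.5, 82.7 and 75.7 FPKM, again without overlap, with a log2 fold change of 0.21 (SE 0.085). TSPAN4 was at 26.9, 25.5 and 23.4 FPKM and at 27.8, 27.8 and 27.0 FPKM, so that its groups were separated only narrowly, with a log2 fold change of 0.12 (SE 0.080).

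For the other 6 genes the groups overlapped. CD151, a partner of laminin-binding integrins, was at 100.5, 117 and 94.5 FPKM in control cells and, after TAX, at 116, 123 and 113 FPKM, with a log2 fold change of 0.18 (SE 0.097). CD81 had a log2 fold change of 0.14 (SE 0.086) and TSPAN1 of 0.15 (SE 0.090). TSPAN3, TSPAN13 and TSPAN15 had nearly equal means, with ratios of TAX to control of 0.988, 1.01 and 1.02. The control range of TSPAN13, 14.5 to 18.2 FPKM, enclosed its TAX range of 15.3 to 16.9 FPKM.

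Across the 10 genes, 9 had a log2 fold change above 0, and the median was 0.14, where the median over all genes tested was 0.054 and 69.1% of them were above 0. In 4 of the 10 (CD82, CD9, CD63 and TSPAN4) each TAX value exceeded each control value, as in 14.6% of all genes, and in 0 of the 10 the reverse held, as in 3.34% of all genes. At an adjusted p under 0.05 (limma, Benjamini-Hochberg over all genes), 1 of the 10, CD82, passed on the higher side, where 0.316% of all genes passed, and 0 passed on the lower side, where 0.162% did. At an unadjusted p under 0.05, 3 of the 10 passed, where 10.1% of all genes did. Because the genes were chosen with this comparison known, nothing is read from these counts.

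**Figure D2:**
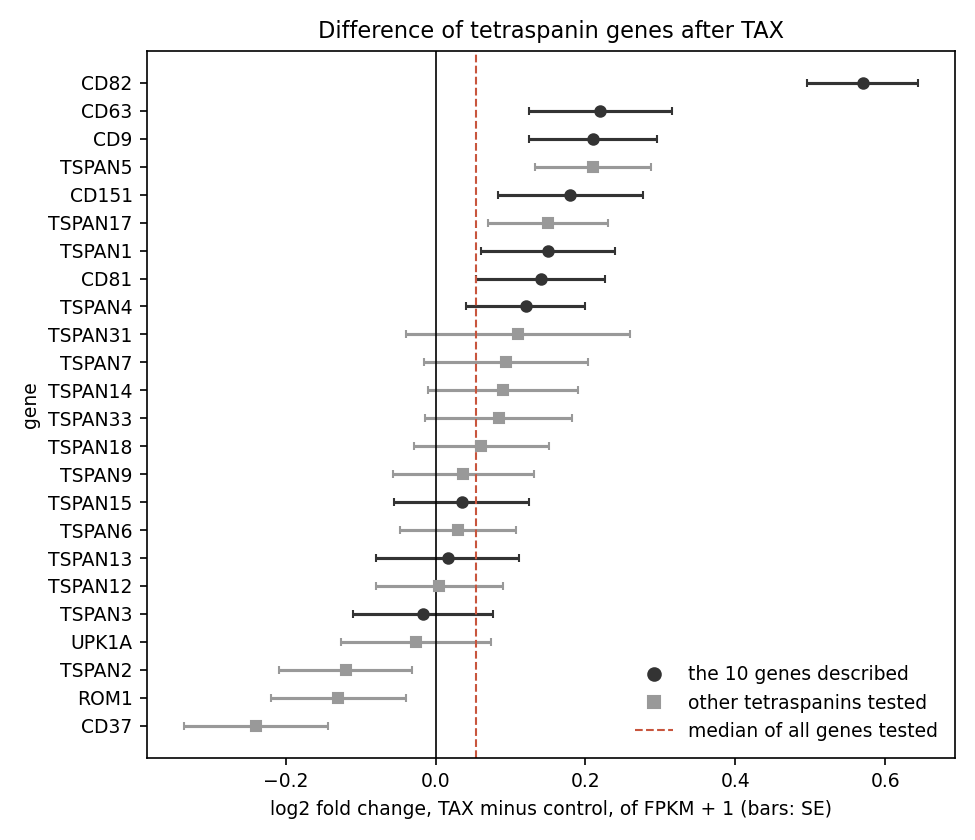
Log2 fold change (TAX minus control, log2(FPKM + 1) scale) of the tetraspanins that passed the filter, with bars for the SE. CD82 stands at 0.57, apart from the others, which lie between -0.24 (CD37) and 0.22 (CD63).

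Control replicate 3 held the lowest value for 9 of the 10 genes (all but TSPAN13). Without that library, 7 of the 10 genes had a log2 fold change above 0, with TSPAN3, TSPAN13 and TSPAN15 below it, and the median of the 10 was 0.085 where that of all genes was 0.0055. The same 3 genes lay below 0 when libraries were quantile normalized or centred on their medians, with medians of the 10 of 0.089 and 0.083. CD82 had a log2 fold change of 0.56 without control replicate 3, and between 0.51 and 0.66 under the 14 other ways of processing, and it was the largest of the 10 in each. At an adjusted p under 0.05 in limma, 1 of the 10 passed as reported, with 39 higher and 20 lower of 12359 genes. Without TAX replicate 2, 0 of the 10 passed, with 9 higher and 10 lower of all genes. Without TAX replicate 3, 0 of the 10 passed, with 11 higher and 12 lower of all genes. With no filter on low values, 0 of the 10 passed, with 0 higher and 1 lower of 20280 genes. The count stayed at 1 of the 10 under the other alternatives.

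**Figure D3:**
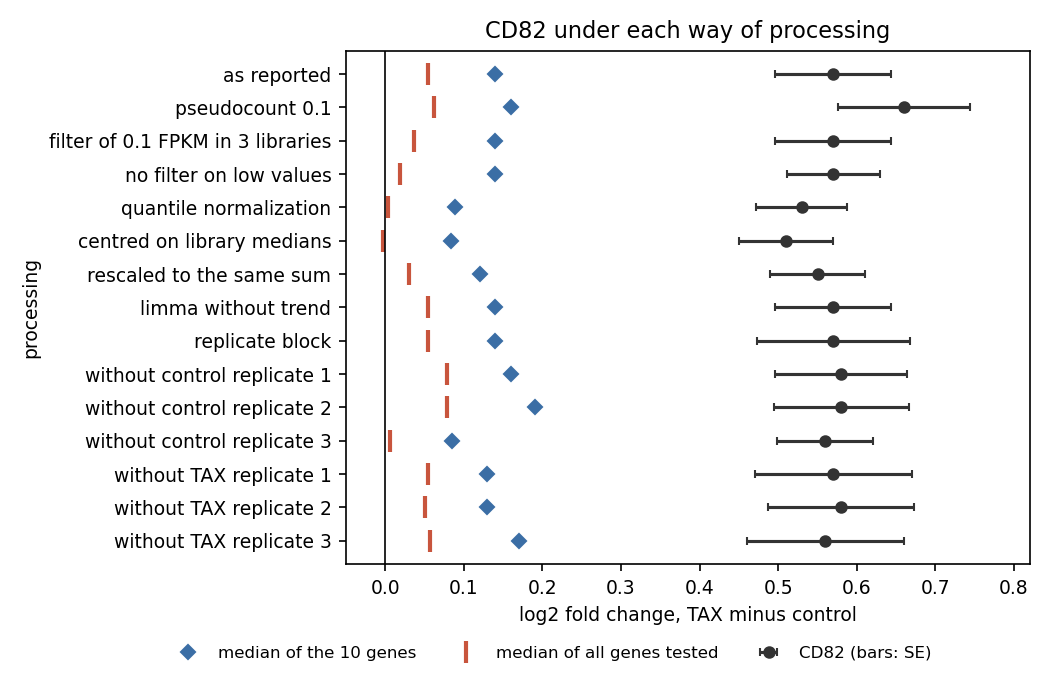
Log2 fold change of CD82 (circles, bars for the SE), the median of the 10 tetraspanins (diamonds) and the median of all genes tested (red bars) as reported and under 14 other ways of processing. CD82 lies between 0.51 and 0.66 throughout. As reported, CD82, the median of the 10 and that of all genes were 0.57, 0.14 and 0.054. After centring on library medians each was lower, at 0.51, 0.083 and -0.0034.

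Of the 23 other tetraspanins, 14 passed the filter, and the differences were small. Among them 10 (71.4%, against 69.1% of all genes) had a log2 fold change above 0 and 4 below, with a median of 0.049. In limma 0 passed at an adjusted p under 0.05, and 2 had an unadjusted p under 0.05, against 10.1% of all genes. TSPAN5, like TSPAN15 a partner of ADAM10, was at 14.1, 15.5 and 13.8 FPKM in control cells and at 16.6, 17.0 and 17.1 FPKM in TAX-treated cells, with a log2 fold change of 0.21 (limma, adjusted p = 0.406). CD37, a tetraspanin of leukocytes, was at 1.74, 1.30 and 1.84 FPKM and at 1.16, 1.30 and 1.17 FPKM, with a log2 fold change of -0.24 (limma, adjusted p = 0.435). The leukocyte gene PTPRC was at or near 0 in the same libraries, at most 0.00692 FPKM, and the leukocyte tetraspanin CD53 was at 0.299 to 0.542 FPKM.

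The most abundant of these others was TSPAN17, a further ADAM10 partner, at 19.0 ± 0.590 FPKM in control cells and 21.2 ± 1.37 FPKM in TAX-treated cells, above TSPAN13 in both groups. TSPAN33, TSPAN9, TSPAN6, TSPAN31, TSPAN12, TSPAN7 and TSPAN14 had control means between 3.17 and 7.69 FPKM, and their log2 fold changes lay between 0.0051 and 0.11. TSPAN2, TSPAN18, ROM1 and UPK1A had control means between 1.07 and 1.79 FPKM, with log2 fold changes of -0.12, 0.061, -0.13 and -0.026. The 9 genes below the filter were TSPAN8, TSPAN10, TSPAN11, TSPAN16, TSPAN19, TSPAN32, CD53, UPK1B and PRPH2.

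The surface proteins with which tetraspanins are known to associate were then examined as a list of 18 genes. Of these, 13 (72.2%, against 69.1% of all genes) had a log2 fold change above 0 and 5 below, with a median of 0.095. In limma 0 passed at an adjusted p under 0.05, and 4 of the 18 had an unadjusted p under 0.05, against 10.1% of all genes, all on the higher side (ITGA6, MET, ITGA2 and ITGA3). Of the 18 genes, 15 (83.3%) were lowest in control replicate 3, against 58.0% of all genes. Without that library the log2 fold changes of ITGA2 and ITGA3 were 0.22 and 0.15, against 0.31 and 0.25 with it. Those of ITGA6 and MET were then both 0.29. ITGA6, a chain of laminin-binding integrins that associate with CD151, was at 36.3, 34.8 and 33.9 FPKM in control cells and at 43.3, 43.6 and 44.0 FPKM in TAX-treated cells, without overlap, with a log2 fold change of 0.31 (SE 0.074, limma adjusted p = 0.145). MET, the receptor of hepatocyte growth factor, had a log2 fold change of 0.35 (limma, adjusted p = 0.180). The most abundant partners were ITGB1, the shared beta chain of these integrins, with means of 601 and 585 FPKM, and BSG, with means of 275 and 308 FPKM. ADAM10, the protease bound by TSPAN15 and TSPAN5, had means of 28.2 and 26.5 FPKM.

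CD63, CD9 and CD81 are widely used as marks of extracellular vesicles, so 14 genes of vesicle formation and release were set beside them. Of these, 10 (71.4%, against 69.1% of all genes) had a log2 fold change above 0 and 4 below, with a median of 0.079. In limma 0 passed at an adjusted p under 0.05, and 4 of the 14 had an unadjusted p under 0.05, against 10.1% of all genes (HGS, VPS28 and VPS37B with higher means after TAX, RAB27A with a lower mean). Of the 14 genes, 12 (85.7%) were lowest in control replicate 3, against 58.0% of all genes. Without that library the log2 fold changes of HGS, VPS28 and VPS37B were 0.25, 0.14 and 0.17, against 0.36, 0.23 and 0.21 with it. That of RAB27A was then -0.39, against -0.33. RAB27A, a small GTPase needed for the docking of vesicle-bearing endosomes at the membrane, was at 13.1, 12.7 and 11.3 FPKM in control cells and at 9.59, 10.2 and 9.04 FPKM in TAX-treated cells. All 3 TAX values lay below all 3 control values, with a log2 fold change of -0.33 (SE 0.086, limma adjusted p = 0.196). Under quantile normalization its log2 fold change was -0.39 and it passed the test (limma, adjusted p = 0.0349), as it did when libraries were centred on their medians or rescaled to the same sum. HGS, an early component of endosomal sorting, was at 49.3, 48.4 and 39.0 FPKM and at 60.0, 56.3 and 59.1 FPKM, with a log2 fold change of 0.36 (limma, adjusted p = 0.232). The most abundant of the list were SDCBP (syntenin, which links CD63 to vesicle formation), with means of 109 and 126 FPKM, and FLOT2, with means of 59.0 and 61.5 FPKM.

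Of 8 genes of the endosome and lysosome membrane, where CD63 resides, 7 had a log2 fold change above 0 (69.1% of all genes did), with a median of 0.083, and 0 passed at either an adjusted or an unadjusted p under 0.05 in limma. Control replicate 3 held the lowest value for 6 of the 8, against 58.0% of all genes. LAMP1 had means of 84.1 and 89.3 FPKM and NPC1 of 80.3 and 84.3 FPKM. The smallest p of this list was that of MCOLN1, a lysosomal ion channel, with a log2 fold change of 0.16 (limma, adjusted p = 0.536).

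The differences were likewise small in 8 genes known to act on CD82 or its transcription. All 8 had a log2 fold change above 0, against 69.1% of all genes, with a median of 0.16, where that of all genes was 0.054. All 8 were also lowest in control replicate 3, against 58.0% of all genes. Of these, 0 passed at an adjusted p under 0.05 in limma and 1 had an unadjusted p under 0.05, against 10.1% of all genes, namely NFKB1, a subunit of NF-kappaB, with a log2 fold change of 0.25 (limma, adjusted p = 0.471). CTNNB1 (beta-catenin), the most abundant of the list, had means of 98.6 and 111 FPKM.

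Of 12 other genes known as metastasis suppressors, 10 passed the filter, with ARHGDIB and GAS1 below it, and 8 of the 10 had a log2 fold change above 0, against 69.1% of all genes. The median was 0.11, and 0 passed at an adjusted p under 0.05 in limma while 1, NME1, had an unadjusted p under 0.05, against 10.1% of all genes. Control replicate 3 held the lowest value for 9 of the 10, against 58.0% of all genes. NME1 was at 97.7, 99.6 and 81.0 FPKM in control cells and at 103, 126 and 118 FPKM in TAX-treated cells, with a log2 fold change of 0.31 (limma, adjusted p = 0.373). Its near-identical neighbour NME2 had means of 321 and 347 FPKM, and how reads were divided between them is uncertain. NDRG1 had means of 207 ± 84.7 and 173 ± 40.4 FPKM, with the widest spread of those named.

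**Figure D4:**
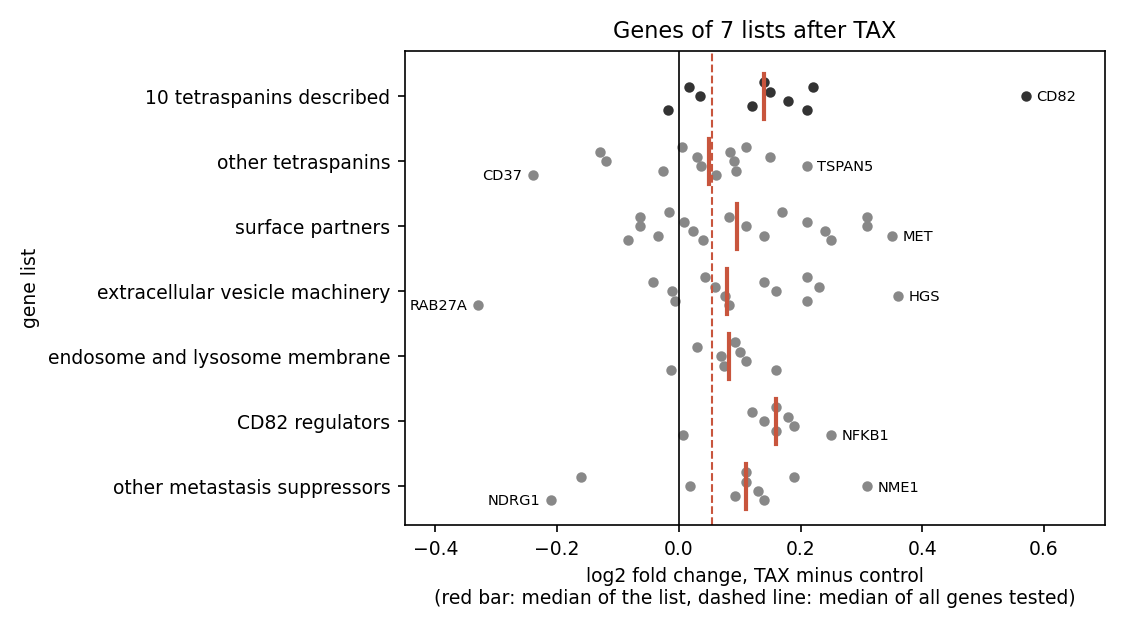
Log2 fold change (TAX minus control) of each tested gene in 7 lists, with red bars for the median of a list and a dashed line for the median of all genes tested. CD82 at 0.57 lies beyond all other points, and RAB27A at -0.33 is the lowest.

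The genes whose pattern over the 6 libraries was most like that of CD82 were sought among 6074 genes with a mean of at least 10 FPKM. CD82 itself was high in the TAX libraries and low in the control libraries, so a likeness to it over 6 libraries rests mostly on that difference, and it is given as a description. PDLIM2, a protein of the actin cytoskeleton, had a Pearson r of 0.996, with 8.56, 8.61 and 8.14 FPKM in control cells and 12.2, 11.5 and 12.3 FPKM in TAX-treated cells. MAP4K4, a kinase, and TOMM70, a receptor for proteins imported into mitochondria, each had an r of 0.993. The r does not reflect the size of a difference. MAP4K4 had means of 40.8 and 58.0 FPKM, but TOMM70 only of 20.9 and 22.4 FPKM. The most opposite patterns were those of NNMT, an enzyme that methylates nicotinamide, with an r of -0.993 and means of 131 and 97.3 FPKM, and of the interferon-induced genes IFIT2 and IFIT3, with r of -0.978 and -0.975.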

How the data were processed

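RNA of DU145 cells was sequenced in 6 libraries, 3 control and 3 TAX, as mRNA libraries from total RNA. The submitters' processing notes name HISAT2 2.2.0, StringTie 2.1.2 and GRCh38, without roles or settings. The authors deposited 1 value per gene and library, taken here as FPKM from the values and tools, unpooled. Identifiers beginning with MSTRG numbered 3130 of 23062. Groups came from the labels. Symbols were matched exactly.

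Genes that reached 1 FPKM in 3 or more of the libraries were tested on log2(FPKM + 1) with limma 3.58.1 (trend, two-sided) in R 4.3.3, with Benjamini-Hochberg adjustment over 12359 genes. Adding 1 understates the change of low genes, CD82 and TSPAN1 among them. The code was tested on simulated data. The 10 tetraspanins and the 6 other gene lists were chosen with earlier results of these data known. In each list the text names genes with an adjusted p under 0.05, the gene with the smallest p, the 2 with the highest mean, and tetraspanins with a mean of at least 1 FPKM. MET, ITGA2, ITGA3, HGS, VPS28, VPS37B, ADAM10 and the genes below the filter were named after their values were seen. Protein sequences were not analysed here, and some genes that this rule or the marker check covers are not reported here. Alternatives covered the pseudocount, filter, scaling, variance model, replicate number and each library in turn.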

Additional observations from a re-analysis of the deposited data

How the results depend on the processing

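Across all genes, 39 were higher and 20 lower in TAX-treated cells (limma, adjusted p under 0.05). These counts were 25 and 12 with a filter of 0.1 FPKM, and 0 and 1 with no filter, where 1244 higher and 610 lower genes had an unadjusted p under 0.05. They were 47 and 48 after quantile normalization and 46 and 50 after centring on library medians. Leaving out 1 library at a time gave between 9 and 28 higher and between 8 and 15 lower. Same-numbered libraries did not deviate together from their group means (r of -0.117, -0.333 and -0.171). Differently numbered pairs had r between -0.167 and 0.292. With 3 libraries per group, these values cannot show whether same-numbered libraries shared a culture or batch. With the number as a replicate block, the counts were 13 and 13. The log2 fold change of CD82, 0.57, was 0.66 with a pseudocount of 0.1, 0.53 after quantile normalization and 0.51 after centring, and between 0.56 and 0.58 with 1 library left out. Rescaling libraries to the same sum was chosen after seeing the data. Among the single genes given with a fold change and recomputed, TSPAN3, TSPAN13 and TSPAN15 took the other sign under 4, 6 and 3 of the 14 alternatives and no other gene did. The call of RAB27A was gained under 3 alternatives. Depth is unknown, so the precision of low genes could not be set. The causes were not tested.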
